A study of Homo sapiens with 4 samples.

Results

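Within the H2AK119ub peaks that YTHDF1 knockdown and wild-type H1 human embryonic stem cells have in common, 2277 pairs lay deep inside the bodies of protein-coding genes. A pair was 1 knockdown peak and 1 wild-type peak that share bases with each other and with no other peak. It was chosen by its width and position: it was taken when the width of the knockdown peak divided by that of the wild-type peak was over 0.5 and under 2, and when the wild-type peak lay wholly inside a protein-coding gene and more than 10 kb from both annotated ends of every protein-coding gene. They make up 2277 of the 13943 pairs on chromosomes 1 to 22 that met the same width bounds. Of the others, 9190 lay within 10 kb of a gene end and 2476 lay outside these genes. Because overlap, width and position chose the pairs, their widths, ratios and scores are given as a description and without a test.

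The study compared chromatin immunoprecipitation sequencing of YTHDF1-depleted and wild-type H1 cells. The YTHDF1 knockdown group is labelled as H1 cells treated with an shRNA against YTHDF1. The wild-type group is labelled as untreated H1 cells, with no control hairpin named, so depletion of YTHDF1 and delivery of a hairpin cannot be told apart. Cells of both groups were kept in mTeSR1, a feeder-free medium for pluripotent stem cells. H1 is an established human embryonic stem cell line. Each group had 1 H2AK119ub library and 1 input library, and the input libraries were not analysed here. No RNA was measured, so neither the depletion of YTHDF1 nor the markers of the cell line could be checked.

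H2AK119ub is histone H2A carrying a single ubiquitin on a lysine of its tail. Polycomb repressive complex 1 (PRC1) places it through its catalytic subunits RING1 and RNF2, and it is found at silent developmental genes, many of which have promoters rich in CpG dinucleotides. KDM2B, a subunit of 1 form of PRC1, binds unmethylated CpG islands. Long genes often have alternative promoters inside their own bodies, and some of these are CpG islands. YTHDF1 is a cytoplasmic reader of N6-methyladenosine (m6A) in messenger RNA.

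The knockdown list held 34097 peaks and the wild-type list 32451 on chromosomes 1 to 22. With 1 library per group there was no replicate spread to set any difference against. The lists hold no read counts, so their depth is unknown, and a peak of 1 list may lie just under the calling limit of the other. Positions are in hg38 and gene ends come from RefSeq on GRCh38.p14. Intervals below are exact 95% binomial intervals over peaks and cover counting error only. Pairs of the same gene are not independent of each other.

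The 5 best-ranked pairs that held a listed start of their own host gene show the kind of sequence found in such regions. The RefSeq promoter table gives, for each listed transcription start, 300 bases that run from 250 before it to 50 after it. The CpG-richest start of each was taken, so their CG counts are high partly by choice, and 4 of the 5 are printed. The fifth, in PDE10A, is described with that gene. The 2 CpG-poorest of 4 RBFOX3 starts in no peak of either list are printed as a contrast within 1 gene. ZFHX3 encodes a zinc finger homeobox transcription factor, RUNX3 a runt-domain transcription factor, WNT5A a secreted non-canonical Wnt ligand and RBFOX3 the neuronal splicing factor known as NeuN. Each sequence is written 5' to 3' on the strand of the gene, with CG dinucleotides in capitals.
ZFHX3 start at chr16:73048079-73048378, strand minus: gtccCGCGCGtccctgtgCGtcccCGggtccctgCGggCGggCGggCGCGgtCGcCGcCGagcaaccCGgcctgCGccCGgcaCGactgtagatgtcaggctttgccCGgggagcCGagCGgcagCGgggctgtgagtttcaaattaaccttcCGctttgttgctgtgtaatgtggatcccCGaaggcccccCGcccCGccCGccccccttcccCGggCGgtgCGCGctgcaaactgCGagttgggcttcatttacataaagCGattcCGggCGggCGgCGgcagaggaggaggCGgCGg
RUNX3 start at chr1:24930227-24930526, strand minus: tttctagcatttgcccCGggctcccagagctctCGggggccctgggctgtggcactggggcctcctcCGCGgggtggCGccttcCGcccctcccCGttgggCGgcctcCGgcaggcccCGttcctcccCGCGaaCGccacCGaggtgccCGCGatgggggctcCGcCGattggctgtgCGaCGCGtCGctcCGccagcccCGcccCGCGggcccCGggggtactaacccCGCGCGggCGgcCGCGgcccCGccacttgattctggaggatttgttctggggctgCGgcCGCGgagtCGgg
WNT5A start at chr3:55481349-55481648, strand minus: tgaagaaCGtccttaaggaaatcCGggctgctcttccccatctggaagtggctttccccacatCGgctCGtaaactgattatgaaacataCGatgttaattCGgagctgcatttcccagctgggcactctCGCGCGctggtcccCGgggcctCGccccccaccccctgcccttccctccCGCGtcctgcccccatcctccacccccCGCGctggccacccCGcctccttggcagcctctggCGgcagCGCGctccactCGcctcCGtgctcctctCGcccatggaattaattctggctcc
RBFOX3 start at chr17:79609112-79609411, strand minus: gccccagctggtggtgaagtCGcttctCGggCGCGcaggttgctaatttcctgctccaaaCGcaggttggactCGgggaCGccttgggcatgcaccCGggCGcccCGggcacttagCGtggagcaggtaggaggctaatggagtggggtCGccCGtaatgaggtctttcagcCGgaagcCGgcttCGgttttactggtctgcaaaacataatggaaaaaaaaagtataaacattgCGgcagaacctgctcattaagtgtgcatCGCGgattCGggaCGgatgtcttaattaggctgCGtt
RBFOX3 start at chr17:79509789-79510088, strand minus: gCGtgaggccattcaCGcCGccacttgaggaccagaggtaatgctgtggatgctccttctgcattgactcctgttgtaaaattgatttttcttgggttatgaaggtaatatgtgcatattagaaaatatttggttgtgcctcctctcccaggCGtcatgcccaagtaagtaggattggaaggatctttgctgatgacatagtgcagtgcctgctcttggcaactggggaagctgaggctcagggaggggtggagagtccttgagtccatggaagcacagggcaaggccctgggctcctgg
RBFOX3 start at chr17:79556435-79556734, strand minus: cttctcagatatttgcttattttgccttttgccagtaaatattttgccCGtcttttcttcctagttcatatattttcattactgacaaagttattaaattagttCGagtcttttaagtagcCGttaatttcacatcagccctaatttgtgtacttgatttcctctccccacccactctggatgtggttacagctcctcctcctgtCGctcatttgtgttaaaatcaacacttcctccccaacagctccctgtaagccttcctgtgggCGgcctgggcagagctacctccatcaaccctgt
The starts in shared peaks hold 38 CG dinucleotides in ZFHX3, 38 in RUNX3, 22 in WNT5A and 22 in RBFOX3. The printed RBFOX3 starts outside all peaks hold 4 and 5, and the 2 not printed hold 11 and 15. RBFOX3 has 2 further starts in shared pairs, with 18 and 6, so within this gene the counts inside and outside pairs overlap. GC content was 70.7%, 76.0%, 63.7% and 56.0% at the printed starts in peaks, and 51.3% and 43.0% at the printed RBFOX3 starts outside peaks.

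Score and width ranked these pairs, so their own values are a description. The ZFHX3 pair was 51.8 kb wide in knockdown cells against 55.0 kb in wild-type cells, the widest of all 2277 pairs in both lists, and it lay 236 kb from the nearest protein-coding gene end. The RUNX3 pair was 20 kb wide in the knockdown, against 15.4 kb in wild-type cells. The WNT5A pair spanned 14.4 kb in knockdown cells and 13.2 kb in wild-type cells. The pair that holds the CpG-rich RBFOX3 start spanned 11.6 kb in knockdown cells against 8.6 kb in wild-type cells. So 3 of these 4 pairs were wider in the knockdown. The ZFHX3 peak ran over chr16:73021201-73073000 in knockdown cells and over chr16:73019201-73074200 in wild-type cells, and the WNT5A peak over chr3:55478001-55492400 and chr3:55478801-55492000 in the same order. These 4 had the ceiling score of 1000 in both lists, while the PDE10A pair scored 228 in the knockdown list and 1000 in the wild-type list. The score is the authors' own value per peak and ranks peaks only within its list.

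Listed starts, CpG-rich or not, lay in a minority of the member pairs, and 1771 of the 2277 held none. Over all deep peaks, a listed protein-coding start lay in 9.30% of 7191 knockdown peaks and in 9.56% of 7089 wild-type peaks. Across all 2277, a listed protein-coding start lay in 429 knockdown peaks (18.8%, 17.3 to 20.5%) and in 430 wild-type peaks (18.9%, 17.3 to 20.6%). It lay in both peaks of 416 pairs, in the knockdown peak alone in 13 and in the wild-type peak alone in 14. By the distance rule itself, the start in each of the 430 pairs belonged to a gene that hosts the pair. Of these pairs, 107 held at least 2 listed protein-coding starts. They are internal alternative starts, since the outer ends of the gene were over 10 kb away. A start of a long noncoding RNA (lncRNA) lay in 155 knockdown peaks and in 155 wild-type peaks (6.81% in each). The table lists a promoter for 15101 of 18973 protein-coding genes (79.6%) and for 1191 of the 1470 host genes, so further starts may be missed. The count of starts was chosen after the data were seen.

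A start was called CpG-rich when its 300 bases had at least 55% GC and an observed-to-expected CpG ratio of at least 0.65. By this measure 336 knockdown peaks (14.8%, 13.3 to 16.3%) and 335 wild-type peaks (14.7%, 13.3 to 16.2%) of the pairs held a CpG-rich start. Protein-coding and lncRNA starts were counted together here. The deep interior of protein-coding genes, meaning all sequence inside them and more than 10 kb from every end, held 878 such starts in 919 Mb. The knockdown peaks of the pairs held 54.0% of them and the wild-type peaks 53.6%. Their summed widths equalled 1.09% and 1.18% of that interior, though 33 of the knockdown peaks came within 10 kb of an end. Listed protein-coding starts reached 58.1 per Mb in the knockdown peaks of the pairs and 54.1 per Mb in their wild-type peaks. Over all deep peaks the values were 31.9 per Mb in the knockdown list and 27.3 per Mb in the wild-type list. Over the whole interior there were 2.77 per Mb.

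Deep wild-type peaks that met no knockdown peak held few starts, and the other classes lay between or near the pairs. Of the 7089 wild-type peaks deep inside genes, 3138 met no knockdown peak, and 77 of these held a protein-coding start (2.45%, 1.94 to 3.06%) and 20 a CpG-rich start (0.637%, 0.390 to 0.983%). Among the 528 that met several knockdown peaks, 84 held a protein-coding start (15.9%, 12.9 to 19.3%), an interval that overlaps that of the pairs. An lncRNA start was in 9.47% of these (7.11 to 12.3%), against 6.81% (5.81 to 7.92%) of the pairs' wild-type peaks, and a start of either kind in 22.3%, against 22.2%. Among the 496 in a pair at 0.5 or less, 50 did (10.1%, 7.57 to 13.1%). The 128 in a pair at 2 or more, which are narrow in the wild type, had 64.7 CpG-rich starts per Mb, against 43.6 in the pairs' wild-type peaks. In the other direction, 2774 deep knockdown peaks met no wild-type peak, and 64 of them held a protein-coding start (2.31%, 1.78 to 2.94%). The plot of starts by kind of match shows these shares.

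**Figure D1:**
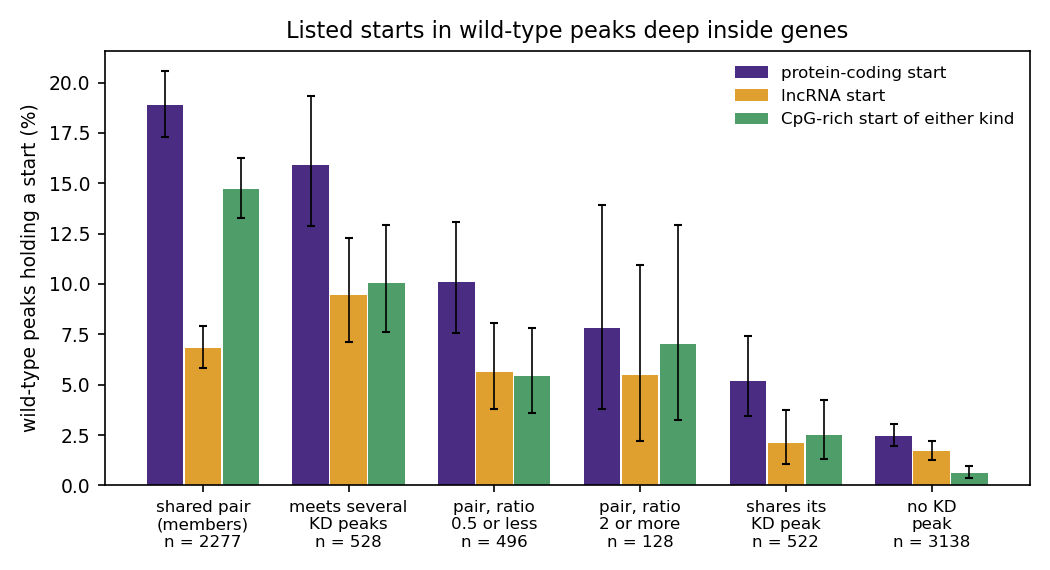
The y axis gives the percent of wild-type peaks deep inside genes that hold a listed protein-coding start, an lncRNA start or a CpG-rich start of either kind, by how the peak was matched in the YTHDF1 knockdown list, with exact 95% binomial intervals. The member pairs stand highest for protein-coding starts at 18.9% and the peaks with no knockdown peak lowest at 2.45%.

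Width and score moved with this difference, so the shares were also read within bands of each. Wild-type peaks of the pairs had a median score of 17.0 and those with no knockdown peak 8.07. Among peaks over 4 and up to 6 kb wide, 21.9% of the pairs' wild-type peaks held a protein-coding start, against 3.05% of those without a knockdown peak. Among those over 6 and up to 8 kb the shares were 25.8% and 2.61%. In the lowest 20% of all deep wild-type peaks by score, 6.72% (3.89 to 10.7%) of the pairs' peaks held a start, against 2.23% (1.42 to 3.32%) of those without a knockdown peak. In the highest 20% the shares were 35.0% (31.5 to 38.6%) and 7.41% (2.77 to 15.4%). The share was thus higher in the pairs in each of these bands, and the part of width and score in it was not tested further.

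The sequence around the starts differed in the same order. The 585 protein-coding starts in member pairs had a median of 27 CG dinucleotides in 300 bases, and 384 of them (65.6%) were CpG-rich. The 487 in other deep peaks had a median of 13 and 38.2% were CpG-rich. The 1328 in no peak of either list had a median of 3 and 3.84% were CpG-rich. All 21156 promoters of protein-coding genes in the table had a median of 21, with 54.2% CpG-rich. The GC box, searched as GGGCGG or CCGCCC, the letters bound by SP1-family factors, was present at 63.6% of the starts in member pairs, 52.2% of those in other deep peaks and 11.5% of those in no peak, against 56.6% of all promoters. The letters TATAAA or TTTATA, searched on both strands for the TATA box, were present at 4.62%, 5.95% and 20.6% of these starts and at 9.51% of all promoters. A GC box holds a CG dinucleotide, so the GC box and CpG counts overlap. These matches describe letters and not binding.

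**Figure D2:**
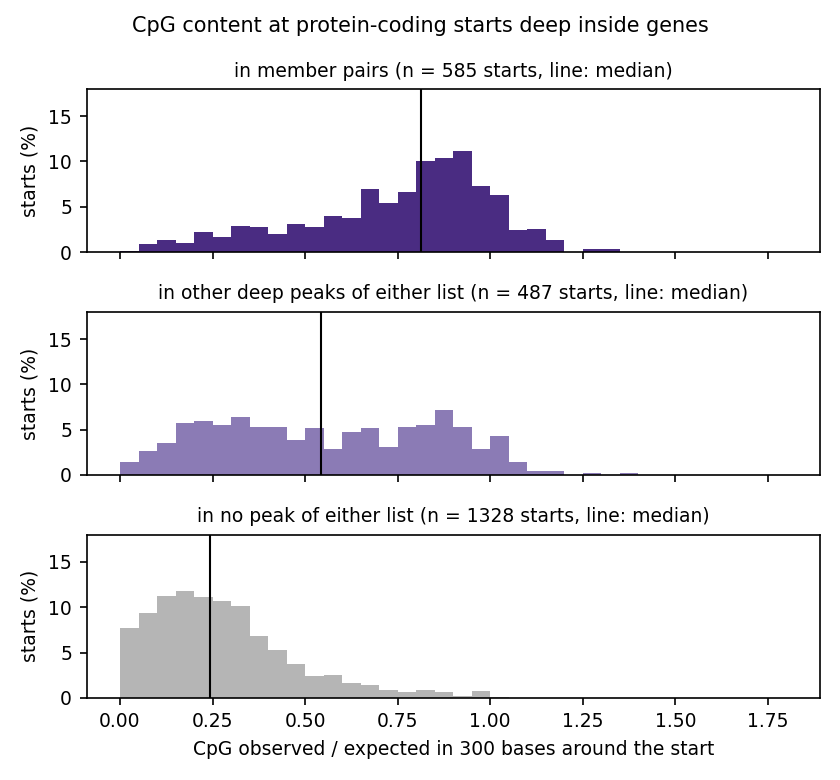
Histograms of the observed-to-expected CpG ratio (x axis) in 300 bases around protein-coding starts deep inside genes, as percent of starts (y axis), for starts in member pairs, in other deep peaks and in no peak. Black lines are medians, which lie at 0.813, 0.543 and 0.242.

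The pairs were on the whole a little narrower in the knockdown, by about as much as pairs elsewhere. The median width was 3.8 kb in the knockdown, against 4.2 kb in wild-type cells, with middle ranges of 3.0 to 5.2 kb and 3.2 to 5.6 kb. The summed width was 10.04 Mb in knockdown cells and 10.81 Mb in wild-type cells, a difference of -7.09%. Without the bounds on the ratio it was -16.7% over all deep one-to-one pairs, so its size depends on the rule. Among the 2277 deep pairs, 1312 were narrower in the knockdown (57.6%, 55.6 to 59.7%), against 56.6% of all pairs within the width bounds. Another 849 were wider (37.3%), against 38.0%, and 116 were equal (5.09%), against 5.35%. The median ratio of knockdown to wild-type width was 0.91 deep inside genes, 0.93 near gene ends and 0.94 outside genes. These shares lay close to the background.

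Larger differences were about as frequent as over all pairs. A ratio of 0.8 or less was found in 801 of the deep pairs (35.2%), against 33.8% of all pairs. A ratio of 1.25 or more was found in 472 of the deep pairs (20.7%), against 19.7% of all pairs. Narrow and wide pairs differed a little. Where the mean width of both peaks was up to 2 kb, 77 pairs had a median ratio of 1 and 44.2% were narrower in the knockdown. Where it was over 6 and up to 8 kb, 248 pairs had a median ratio of 0.89 and 64.5% were narrower. Pairs near gene ends with the same mean width had a median ratio of 0.92 and 58.2% were narrower. The 2 classes lay closer in the neighbouring bands. Over 8 kb, 63.8% of deep pairs and 62.4% of pairs near ends were narrower. From over 4 to 6 kb these shares were 57.7% and 57.0%, and from over 2 to 4 kb 56.0% and 55.5%.

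**Figure D3:**
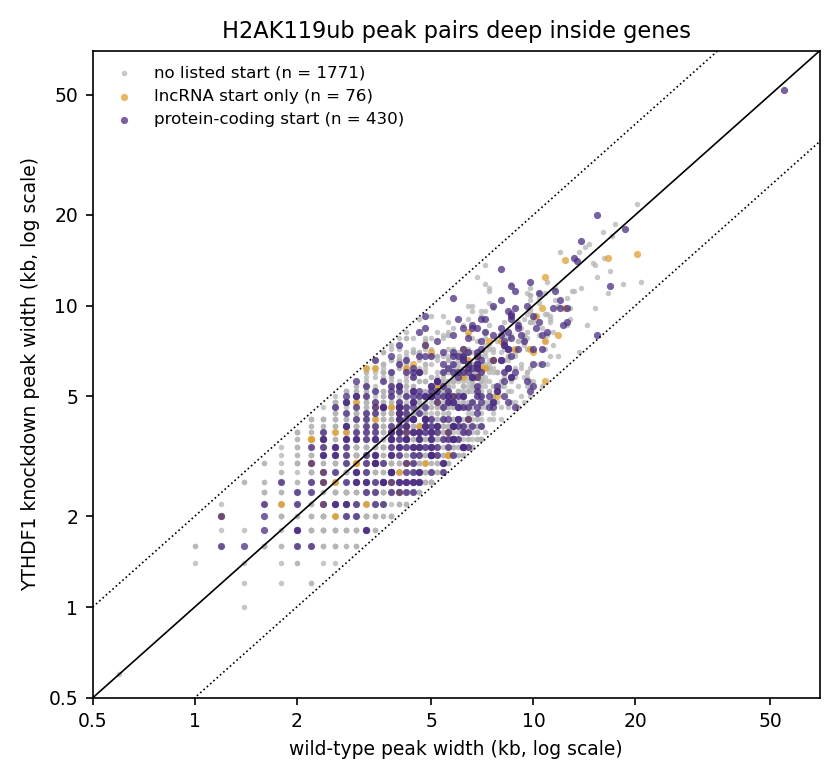
Each point is 1 of 2277 pairs, with wild-type peak width on the x axis and YTHDF1 knockdown peak width on the y axis (kb, both log scales), coloured by the listed start in the wild-type peak. The solid line marks equal width and dotted lines the bounds of 0.5 and 2 that chose the pairs. Most points lie below the solid line, 1312 of 2277, and the ZFHX3 pair stands alone at the upper right.

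Pairs with a start were wider but had a similar ratio. The 430 pairs with a protein-coding start had a median width of 4.6 kb in knockdown cells against 4.8 kb in wild-type cells, and a median ratio of 0.93. The 1771 pairs with no listed start had 3.6 kb in the knockdown, against 4.0 kb in wild-type cells, and a median ratio of 0.90. They include pairs in genes that the promoter table does not list. In the pairs with a CpG-rich start the medians were 4.8 kb in knockdown cells and 5.0 kb in wild-type cells, with a ratio of 0.94. The plot of widths shows where pairs with a protein-coding start, with an lncRNA start alone and with none lie.

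At the bounds of the rule, the PRMT8 pair, at 5.4 kb in knockdown cells against 10.6 kb in wild-type cells, was just inside with a ratio of 0.509. PRMT8 is an arginine methyltransferase of the brain. The HSPG2 pair, at 2.6 kb in the knockdown, against 5.2 kb in wild-type cells, was just outside at 0.5. At the upper bound the CLYBL pair, at 9.0 kb in knockdown cells and 4.6 kb in wild-type cells, was inside with a ratio of 1.96, and the INPP5B pair, at 3.2 kb and 1.6 kb in the same order, was outside at 2. CLYBL is a mitochondrial enzyme. Of 2901 deep one-to-one pairs, 450 had a ratio under 0.5 and 113 over 2, while 46 lay exactly at 0.5 and 15 exactly at 2. For the distance, a pair in NPHP4 at 10025 bp from the nearest end was inside and one in KCNJ4 at 9999 bp was outside.

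Few pairs had the same edges in both lists. In 1226 pairs (53.8%) the knockdown and wild-type peaks were shifted against each other, in 633 (27.8%) the knockdown peak lay inside the wild-type peak, in 390 (17.1%) the wild-type peak lay inside the knockdown peak, and in 28 (1.23%) both edges were the same. The shared bases made up a median of 84.2% of the knockdown peak and 75% of the wild-type peak. The knockdown peak also lay deep inside the gene in 2244 pairs and came within 10 kb of an end in 33. Over the 2277 pairs, knockdown and wild-type width had a Spearman correlation of 0.68 and scores one of 0.65. As the pairs share overlap and width bounds by choice, the first value is set partly by the rule.

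The pairs are the minority of all H2AK119ub peaks this deep in genes. Of the 7089 deep wild-type peaks, 2277 were in a pair within the width bounds (32.1%, 31.0 to 33.2%), against 43.0% of all wild-type peaks, 49.7% of 18483 near gene ends and 36.0% of 6879 outside genes. A deep wild-type peak had no knockdown peak in 44.3% of cases, against 18.7% near ends and 38.5% outside genes. A deep knockdown peak had no wild-type peak in 38.6% of cases. Deep peaks spanned 27.97 Mb in knockdown cells against 33.81 Mb in wild-type cells, a difference of -17.3%. The summed width of the member pairs equalled 35.9% of this length in knockdown cells and 32.0% in wild-type cells. In the knockdown this sum includes 33 peaks that came within 10 kb of a gene end, which the 27.97 Mb leaves out. The member pairs differed by -0.766 Mb, which equals 13.1% of the difference of -5.85 Mb, with the same 33 peaks included.

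Several of the best-ranked pairs lay in genes of transcription factors. NFIB, a nuclear factor I transcription factor of brain and lung development, held a pair of 14.8 kb in the knockdown (chr9:14340801-14355600), against 20.2 kb in wild-type cells (chr9:14337401-14357600). It spans 2 listed starts of the antisense lncRNA NFIB-AS1. SOX6, a transcription factor of cartilage and neural lineages, held a pair of 13.8 kb in knockdown cells and 15.0 kb in wild-type cells with no listed start. RGS20, a regulator of G-protein signalling, had 18.6 kb in knockdown cells against 17.4 kb in wild-type cells. SLFN12L, a gene of the Schlafen family, had 21.8 kb in the knockdown, against 20.2 kb in wild-type cells. All 4 reached the score ceiling in both lists. Among the 5 widest wild-type peaks were also POU2F2 and GRID2IP. POU2F2, which encodes the octamer-binding factor OCT2 of B cells, had 12 kb in knockdown cells and 20.8 kb in wild-type cells. GRID2IP, a partner of a delta glutamate receptor at cerebellar synapses, had 18 kb in knockdown cells against 18.6 kb in wild-type cells.

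Some pairs differed most in width. The lowest ratios after PRMT8 were in PDE10A, a cyclic nucleotide phosphodiesterase of the striatum, with 5.0 kb in the knockdown, against 9.8 kb in wild-type cells, in APPBP2 with 4.8 kb and 9.4 kb in that order and in PKP1, a desmosomal plakophilin, with 4.6 kb and 9.0 kb. The highest after CLYBL were in STK32C, a protein kinase, with 8.2 kb in knockdown cells and 4.2 kb in wild-type cells, in SH3PXD2A, a scaffold of podosomes, with 7.8 kb and 4.0 kb, in ABR with 7.4 kb and 3.8 kb, and in KIRREL1, a cell adhesion protein, with 7.0 kb and 3.6 kb. None of the pairs named here for its ratio held a listed start, but neither did 1771 of all 2277 pairs. The promoter table does not list KIRREL1. PDE10A held a second pair at a CpG-rich start, with 9.2 kb in knockdown cells against 8.6 kb in wild-type cells.

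The 2277 pairs fell into 1470 genes, 14.2% of the 10381 protein-coding genes that have any deep interior. Host genes were long, with a median of 125 kb, against 59.4 kb over all genes with deep interior. There were 1036 hosts with 1 pair, 251 with 2, 95 with 3, 34 with 4 and 54 with 5 or more. Over all hosts, 850 had less summed width in the knockdown than in the wild type and 556 had more. Of the 88 hosts with at least 4 pairs, in 10 every pair was narrower in the knockdown and in 0 every pair was wider. Of the 480 pairs in these 88 hosts, 306 were narrower and 145 wider. Among the 251 hosts with 2 pairs, both were narrower in 78 and both wider in 38, and among the 95 with 3 pairs, all were narrower in 18 and all wider in 7. Narrower pairs outnumbered wider ones over all pairs too, and the split of 10 and 0 was not tested against that.

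PTPRN2, a receptor-type phosphatase-like protein of secretory vesicles, had the most pairs. It held 16 over a gene of 1049 kb, with widths of 1.6 to 7.6 kb (median 3.8) in knockdown cells and 2.0 to 7.8 kb (median 4.4) in wild-type cells. Their sum was 61.2 kb in the knockdown, against 70.4 kb in wild-type cells, and 12 were narrower, 3 wider and 1 equal. RBFOX3 held 13 pairs with the same sum of 61.2 kb in knockdown cells and 58.4 kb in wild-type cells, of which 4 were narrower and 7 wider. Over the whole RBFOX3 gene, peaks of all kinds covered 225 kb in knockdown cells against 235 kb in wild-type cells. The widths of both genes overlapped widely between the lists.

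KAZN, which encodes the desmosome-associated protein kazrin, held 12 pairs that summed to 51.2 kb in knockdown cells against 60.2 kb in wild-type cells, 9 of them narrower. DLGAP2, a postsynaptic scaffold, also held 12, with sums of 46.6 kb in the knockdown, against 51.6 kb in wild-type cells, 9 narrower. SHANK2, another postsynaptic scaffold, held 11 with 54.8 kb in knockdown cells and 67.6 kb in wild-type cells. Over the whole SHANK2 gene, peaks of all kinds covered 149 kb in knockdown cells against 315 kb in wild-type cells, so most of its difference lay outside the pairs. GSE1, a protein found with histone deacetylase co-repressors, held 11 pairs with 53.0 kb in the knockdown, against 58.8 kb in wild-type cells. CAMTA1, a calmodulin-binding transcription activator, held 11 with 45.4 kb in both. Over the whole CAMTA1 gene, peaks of all kinds covered 78.9 kb in knockdown cells against 141 kb in wild-type cells. For KAZN this cover was 80.8 kb in knockdown cells and 133 kb in wild-type cells. The sums over the pairs of these genes thus ranged from equal to lower in the knockdown, and they do not describe the whole genes.

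The other 5 of the 12 genes with most pairs held 7 or 8 each. NAV1, a microtubule-associated protein of neurons, had 42.6 kb in knockdown cells and 40.0 kb in wild-type cells. IQSEC1, an exchange factor for ARF6, had 32.2 kb in knockdown cells against 37.4 kb in wild-type cells. ABR had 41.0 kb in the knockdown, against 39.6 kb in wild-type cells. Over the whole ABR gene, peaks of all kinds covered 70.3 kb in knockdown cells against 103 kb in wild-type cells. For NAV1 this cover was 75.5 kb in knockdown cells and 74.1 kb in wild-type cells. ANK1, the ankyrin that links spectrin to the membrane, had 36.2 kb in knockdown cells and 39.4 kb in wild-type cells. TSPAN9, a tetraspanin, had 32.4 kb in knockdown cells against 38.6 kb in wild-type cells. ABR had 3 pairs at listed protein-coding starts. ANK1 and TSPAN9 had 0, but the promoter table does not list these genes, so no such start could be counted in them.

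**Figure D4:**
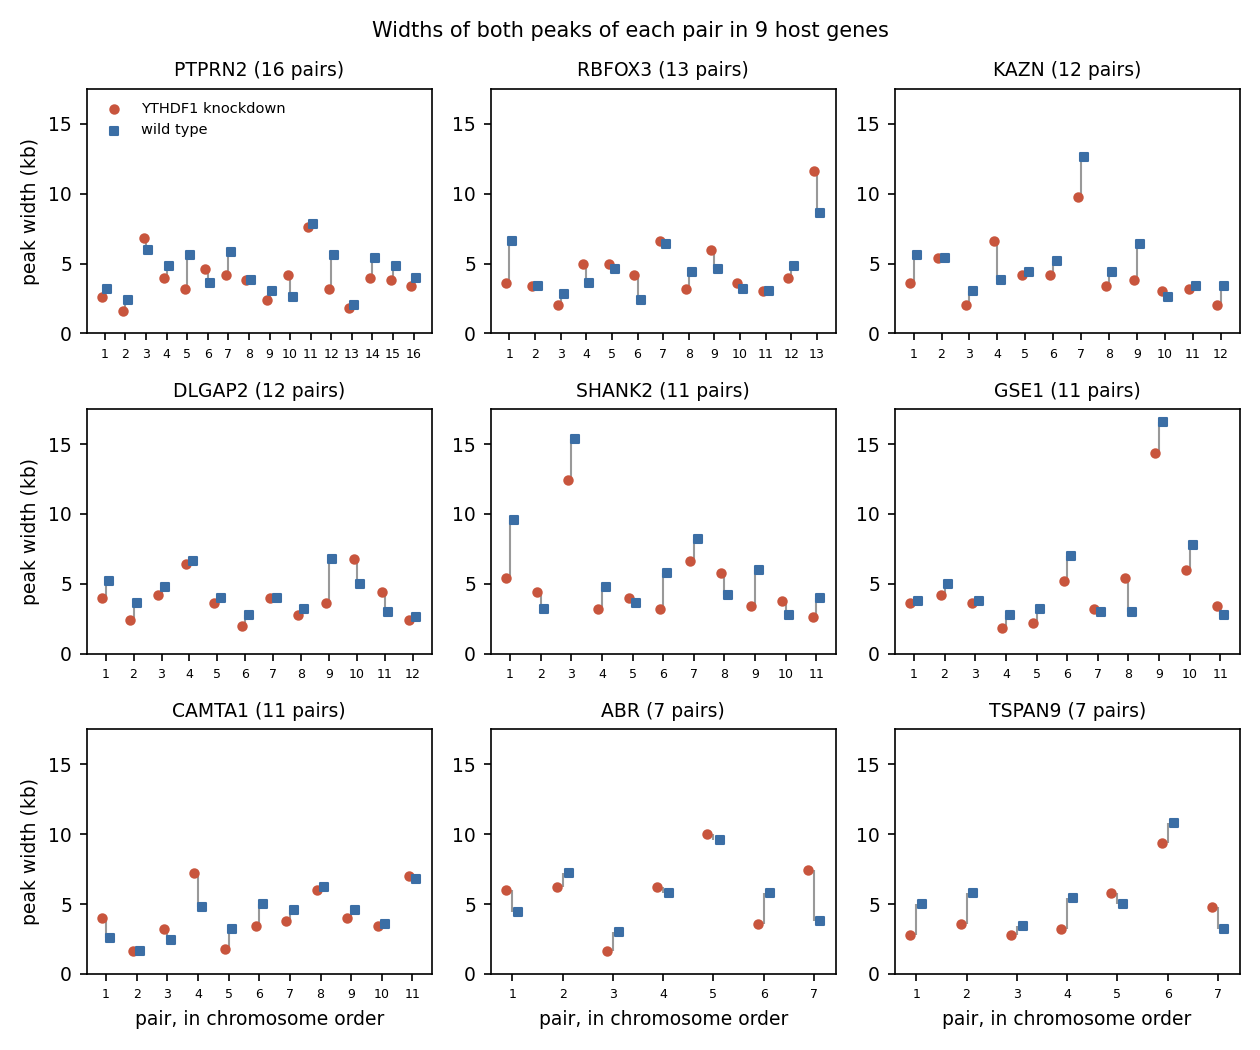
Width in kb (y axis) of the YTHDF1 knockdown peak (circle) and the wild-type peak (square) of each pair, in chromosome order (x axis), in 9 genes with many pairs, with a line joining the peaks of a pair. In PTPRN2 12 of 16 pairs are narrower in the knockdown, and in RBFOX3 7 of 13 are wider.

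The 10 genes where every pair was narrower were chosen after their values were seen, and the widths below describe them. SYN3, a synapsin of nerve terminals, had 6 pairs with 16 kb in the knockdown, against 24.0 kb in wild-type cells. CDH23, the cadherin of hair-cell tip links, had 5 with 18.4 kb in knockdown cells and 28.6 kb in wild-type cells. ITPKB, an inositol trisphosphate kinase, had 5 with 17.8 kb in knockdown cells against 24.6 kb in wild-type cells. AHRR, the repressor of the aryl hydrocarbon receptor, had 5 with 20.2 kb in the knockdown, against 25.8 kb in wild-type cells. TBC1D16, a Rab GTPase-activating protein, had 5 with 21.8 kb in knockdown cells and 26.2 kb in wild-type cells. ZMIZ1, LINGO1, CTIF, PRMT8 and INPP5A had 4 each.

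The 14.2% of all genes with deep interior that hosted a pair is the background for the host shares of the gene groups below. Of 65 neuronal adhesion and synapse organiser genes, 35 hosted a pair (53.8%). Of their 116 pairs, 78 were narrower (67.2%) and 34 wider (29.3%) in the knockdown, against 56.6% and 38.0% of all pairs within the width bounds, with a median ratio of 0.84 against 0.91 over all deep pairs. PTPRN2 and DLGAP2 led this group. These genes are long, with a median of 785 kb. Their density was 2.34 pairs per Mb of deep interior, against 2.48 over all genes and 1.48 over genes longer than 300 kb. Median length was 324 kb in the ion channel group below, 188 kb in axon guidance and 158 kb in collagen and matrix genes. Their densities were 2.43, 2.16 and 2.85 pairs per Mb in that order. The 14.2% is not matched for gene length, and the part of length in the host shares was not tested. Group medians are descriptions and were not tested.

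Transcription factors with long genes had the highest density of the 12 groups, 4.10 pairs per Mb. Of 105 with deep interior, 60 hosted pairs (57.1%). Of 122 pairs, 62 were narrower (50.8%) and 53 wider (43.4%), with a median ratio of 0.96. CAMTA1 held 11 of them, and PKNOX2, a homeobox factor, held 6 with 38.2 kb in knockdown cells against 43.2 kb in wild-type cells. Growth factor and morphogen signalling genes had 49 pairs in 30 of 74 genes (40.5%). Of these pairs 22 were narrower (44.9%) and 24 wider, with a median ratio of 1. DAB1, the adaptor of reelin signalling, had 3 pairs with 24.6 kb in the knockdown, against 18.8 kb in wild-type cells. FSTL4, a follistatin-like protein, had 5 with 24.6 kb in knockdown cells and 27.0 kb in wild-type cells. Over the whole FSTL4 gene the order was the other way, with peaks of all kinds covering 42.8 kb in knockdown cells against 36.9 kb in wild-type cells.

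Ion channels and neurotransmitter receptors had 65 pairs in 32 of 79 genes (40.5%). Of these pairs 36 were narrower (55.4%) and 23 wider (35.4%), near the 56.6% and 38.0% of all pairs. GRIK4, a kainate receptor subunit, led with 6 pairs of 31.8 kb in knockdown cells against 36.2 kb in wild-type cells, followed by KCNIP1, a potassium channel partner, with 5. Axon guidance genes had 29 pairs in 15 of 45 genes (33.3%). Of these pairs 17 were narrower (58.6%) and 9 wider, also near the shares of all pairs. NTN1, a netrin, and EPHB2, an ephrin receptor, led them. NTN1 had 29.0 kb in the knockdown, against 27.8 kb in wild-type cells, EPHB2 13.6 kb and 18.4 kb in the same order. Over the whole NTN1 gene the order was the other way, with peaks of all kinds covering 73.7 kb in knockdown cells against 84.3 kb in wild-type cells.

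Collagen and matrix genes had 44 pairs in 21 of 65 genes (32.3%). Of these pairs 24 were narrower (54.5%) and 19 wider (43.2%), beside 56.6% and 38.0% of all pairs. The collagen genes COL26A1 and COL13A1 led them, with 18.6 kb in knockdown cells against 24.0 kb in wild-type cells for COL26A1 and 30.8 kb and 34.0 kb for COL13A1. Imprinted genes had 33 pairs in 12 of 32 genes (37.5%). Of these pairs 20 were narrower (60.6%, near the 56.6% of all pairs) and 8 wider. DLGAP2 and NTM, a neuronal adhesion protein, led them. NTM had 27.0 kb in the knockdown, against 28.8 kb in wild-type cells. GNAS, the imprinted gene of a stimulatory G-protein subunit and named after its values were seen, held a pair of 8.0 kb in both lists over listed starts of its own and a second pair of 3.4 kb in knockdown cells against 5.2 kb in wild-type cells. Common fragile site genes had 16 pairs in 10 of 25 genes (40%), 9 narrower (56.2%) and 7 wider. Their 0.542 pairs per Mb was the lowest density of the 12 groups. MAGI1, a junctional scaffold, led them with 3 pairs.

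Polycomb genes themselves carried pairs. Of 33 Polycomb and deubiquitinase genes with deep interior, 7 hosted 15 pairs (21.2% of genes, against 14.2% of all genes with deep interior). This share was below that of each group described above, the lowest of which was 32.3%. Median gene length in those groups ran from 144 kb to 1370 kb. Per Mb of deep interior the Polycomb group had 3.66 pairs, above the 2.48 over all genes. Median gene length was 83.5 kb in this group, against 59.4 kb over all genes with deep interior, and its part was not tested. Of the 15 pairs 9 were narrower (60%, near the 56.6% of all pairs) and 4 wider. AUTS2, a subunit of a brain form of PRC1, had 5 pairs with 22 kb in knockdown cells and 24.6 kb in wild-type cells. KDM2B had 4, which measured 3.2, 5.0, 2.6 and 7.8 kb in knockdown cells and 3.2, 5.0, 4.0 and 7.2 kb in wild-type cells. The second of these holds a CpG-rich start of KDM2B. Of 15 genes of the m6A machinery, IGF2BP1, a reader that stabilises methylated messenger RNA, alone hosted pairs (6.67% of genes). Its pairs had widths of 7.6 and 4.0 kb in knockdown cells and 10.8 and 6.2 kb in wild-type cells. Housekeeping and RNA processing genes had 2 pairs in 2 of 41 genes (4.88%, below the 14.2% of all genes with deep interior). They lay in UBE2D2, a ubiquitin-conjugating enzyme, and in RPTOR, a subunit of mTORC1.

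Pairs were unevenly spread over chromosomes. Density was highest on chromosome 19 at 8.87 pairs per Mb of deep interior, then 5.93 on chromosome 22 and 5.29 on chromosome 17. It was lowest on chromosomes 13 and 6, at 1.42 and 1.48. The share narrower in the knockdown ran from 46.8% (37.3 to 56.6%) on chromosome 19 to 66.3% (55.3 to 76.1%) on chromosome 16, and the median ratio was 1 on chromosomes 19 and 20.

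**Figure D5:**
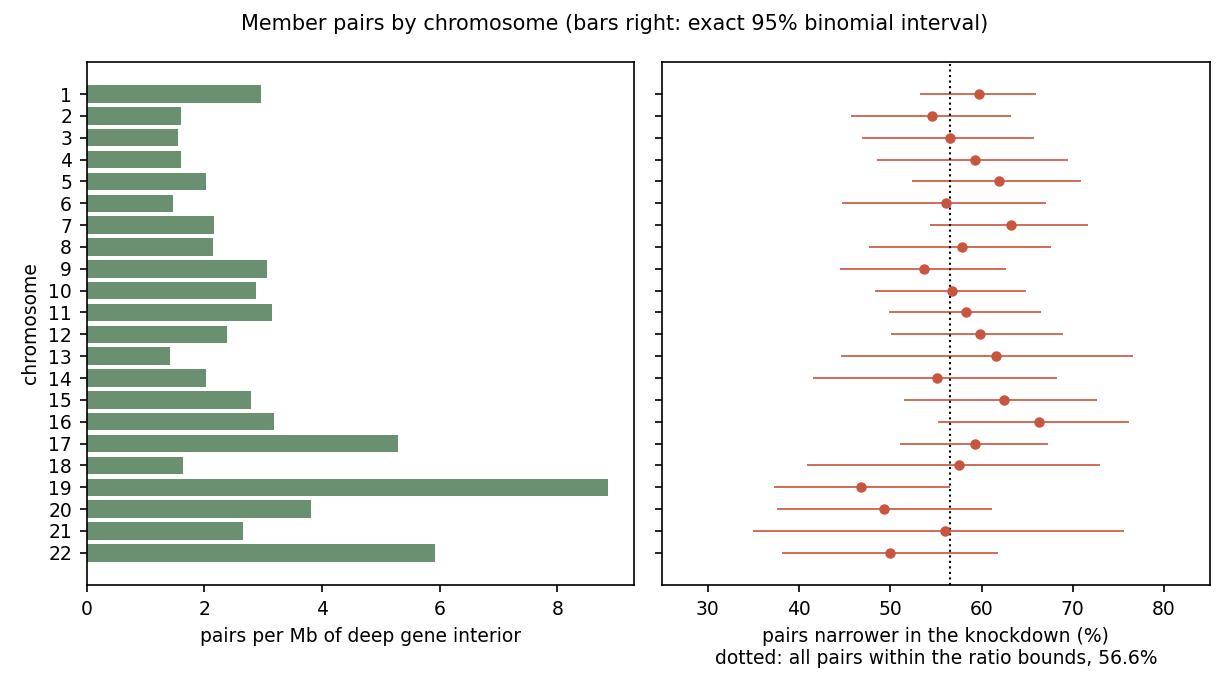
Left, member pairs per Mb of deep gene interior (x axis) by chromosome (y axis). Right, percent of pairs narrower in the YTHDF1 knockdown with exact 95% binomial intervals, with a dotted line at the 56.6% of all pairs within the width bounds. Chromosome 19 has the highest density at 8.87 pairs per Mb and the lowest share narrower at 46.8%.

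Along the gene, pairs were densest after the first of 5 equal stretches and up to the middle. For the 1795 pairs in genes whose strand the promoter table gives, density ran 6.25, 10.3, 9.56, 7.70 and 5.39 pairs per Mb of host interior from the 5' to the 3' end. The share of these pairs with a protein-coding start was 28.3%, 28.3%, 25.7%, 19.7% and 11.9% in the same order. Pairs in genes that the promoter table does not list are left out here, but count in the 18.9% over all pairs. The median ratio showed no such order, at 0.94, 0.91, 0.88, 0.94 and 0.91. Pairs lay a median of 34.0 kb from the nearest gene end, and 359 lay over 100 kb away. In those 359 the median width was 4.0 kb in knockdown cells against 4.4 kb in wild-type cells.

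Other kinds of gene ended inside some pairs. An end of a gene that codes for no protein lay in 294 wild-type peaks of the pairs (12.9%, 11.6 to 14.4%). Ends of lncRNA genes lay in 243, of pseudogenes in 31, of microRNA genes in 18 and of small nucleolar RNA genes in 6. The same shares were not computed for other deep peaks or for the gene interior, so no background stands beside these counts. In the 18 microRNA pairs, 11 were narrower, 6 wider and 1 equal in the knockdown, where 56.6% of all pairs were narrower, and 19 microRNA genes lay wholly inside both peaks. No seed, bases 2 to 8 of a mature microRNA, was shared among the 25 mature sequences of the 17 genes in the RefSeq table. The mature sequences of the 5 with the best-scored wild-type peaks are printed with their seeds in capitals, as they are the products encoded in these regions.
hsa-miR-4519, chr16:30875301-30875318, strand minus: cAGCAGUGcgcagggcug
hsa-miR-5189-3p, chr16:88468984-88469004, strand plus: uGCCAACCgucagagcccaga
hsa-miR-5189-5p, chr16:88468943-88468966, strand plus: uCUGGGCAcaggcggauggacagg
hsa-miR-1203, chr17:48156486-48156506, strand minus: cCCGGAGCcaggaugcagcuc
hsa-miR-6795-3p, chr19:15179283-15179303, strand minus: aCCCCUCGuuucuucccccag
hsa-miR-6795-5p, chr19:15179322-15179345, strand minus: uGGGGGGAcaggaugagaggcugu
hsa-miR-589-3p, chr7:5495834-5495857, strand minus: uCAGAACAaaugccgguucccaga
hsa-miR-589-5p, chr7:5495873-5495894, strand minus: uGAGAACCacgucugcucugag
MIR4519 lay in BCL7C, a subunit of SWI/SNF remodelling complexes, in a pair of 7.0 kb in the knockdown, against 10 kb in wild-type cells. MIR5189 lay in ZFPM1, a cofactor of GATA factors, with 3.8 kb in knockdown cells and 6.2 kb in wild-type cells. MIR1203 lay in SKAP1, an adaptor of T cells, with 11.2 kb in knockdown cells against 13.0 kb in wild-type cells. MIR589 lay in FBXL18, an F-box protein, with 5.4 kb in the knockdown, against 8.2 kb in wild-type cells. MIR6795, in the receptor gene NOTCH3, was the only one of the 5 in a pair that was wider in the knockdown, with 6.6 kb in knockdown cells and 4.2 kb in wild-type cells. The others were MIR2276, MIR346, MIR6090, MIR6815, MIR3150A, MIR3150B, MIR4525, MIR4695, MIR4429, MIR3650, MIR885, MIR4741, MIR7107 and MIR7161. MIR7107 lies in the KDM2B pair that measured 3.2 kb in both lists.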

How the data were processed

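Chromatin immunoprecipitation of H2AK119ub was measured in 1 YTHDF1 knockdown and 1 wild-type H1 library, grouped by sample title. The submitters' processing notes list SICER 1.1, MACS2 2.1.0, Picard, SAMtools 1.3.1, Bowtie2 2.2.5 and Trimmomatic 0.35 on hg38. Which of them called the peaks, and the role of the input, was not given in any source used here. The score per peak is the authors' deposited value, of unstated unit, from 2.00 to a ceiling of 1000, and was compared only within a list. Peaks lie on a grid of 200 bp, and ends were read as inclusive.

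Pairing used chromosomes 1 to 22, in Python 3.11.15 with pandas 2.3.3 and scipy 1.17.1, and was tested on simulated peaks. Genes and starts came from RefSeq on GRCh38.p14, whose gene table gives no exons, so introns and exons were not separated. No test across samples was possible. The members and the 12 gene lists, of 697 genes, were chosen with earlier results of these data known.

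Named genes were the 12 hosts with most pairs, hosts of the 5 widest wild-type peaks, of the 5 lowest and 5 highest ratios and of the 5 best summed ranks, the 2 leading hosts of each list, and microRNA genes inside both peaks. Some of these genes and 1 of the lists are not reported here. Ties in rank were ordered by width. Genes of the start, host-direction and ceiling descriptions beyond these were named after their values were seen. Alternatives covered overlap, width bounds, distance, gene kinds, peak width and score.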

Additional observations from a re-analysis of the deposited data

How the results depend on the processing

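Each group had 1 library, so no replicate could be left out. No paired analysis was possible because each group had 1 H2AK119ub library. Over 13 alternative settings, 132 values were recomputed. Direction was defined only for the median width ratio and the summed width difference, and neither changed it in any setting. The other values are counts, shares, widths and scores, for which no direction was defined. Of the 132 values, 104 stayed near the reported value. That meant within 1.5 times of it for counts and summed widths, and within the 95% counting interval for medians and shares. Within that tolerance, pairs numbered 1635 at over 20 kb from gene ends and 2901 without ratio bounds, and host genes 1020 and 1719. Alternatives for listed starts and for the summed width were chosen after seeing the data. The cause of the shifts below was not tested, and depth is unknown.

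With the upper 50% of peaks by score, there were 990 pairs in 765 genes and 261 in the gene lists, against 539 in the lists as reported. Median wild-type width was then 5.8 kb and score 40.4, 39.1% of deep wild-type peaks had a partner, 20% of pairs held a gene end of another kind and 32.3% a protein-coding start. Without bounds on the ratio, the median ratio was 0.85, wild-type width 4.4 kb, share narrower 62.3%, share with a partner 40.9%, share with a protein-coding start 16.9% and summed width difference -16.7%. With closer bounds on the ratio, under 1.5 and the matching lower bound, the median ratio was 0.94, share narrower 55.3%, share with a partner 23.2% and summed width difference -4.45%. These follow in part from the bounds themselves. With ends of genes of every kind, there were 1513 pairs, with a median wild-type score of 16.1, 30.8% of deep peaks with a partner, 16.8% with a protein-coding start and, by construction, 0% with another gene end. With an overlap of at least 50% of both peaks, wild-type width was 4.6 kb, score 20.2 and share with another gene end 14.8%. With peaks of at least 2 kb, wild-type width was 4.4 kb. With the same number of best-scored peaks in both lists, 31.0% of deep wild-type peaks had a partner.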

Other observations

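Where the mark lay around internal starts was similar in both lists. For the 563 protein-coding starts inside both peaks of 416 pairs, the knockdown peak reached a median of 2.2 kb upstream and the wild-type peak 2.25 kb. Downstream the knockdown peak reached a median of 2.37 kb and the wild-type peak 2.63 kb. For the 380 CpG-rich starts the downstream reach was 2.38 kb in knockdown cells against 2.59 kb in wild-type cells, and for the other 183 starts 2.36 kb and 2.85 kb in that order. These values come from the widths that chose the pairs and were not tested.

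Density differed with gene length. Genes of 20 to 100 kb had 3.57 pairs per Mb of deep interior, those of 100 to 300 kb 2.95 and longer ones 1.48, while the share of pairs with a protein-coding start was 17.6%, 19.4% and 19.4%.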
